A study of Xenopus laevis with 16 samples.

Results

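POUV-depleted whole embryos of *Xenopus laevis* were compared with control embryos at stage 10, the start of gastrulation, on 4 arrays of the 16 in the series. PVD2 morphants had received 60 ng of a mixture of morpholino antisense oligos (MOs) against Xlpou25, Xlpou60 and Xlpou91 in each blastomere of 2-cell embryos, and control embryos the same dose of a control MO. Each array read the RNA of 3 pooled embryos, labelled with Cy3, against a common reference of pooled embryo stages labelled with Cy5, and each group had 2 arrays. The members were chosen by their labels alone. Both groups had been injected, so what injection itself changes is shared by them. P-values rest on the spread between arrays of a group, pooled over all 16 arrays, animal caps included, and not on these 4 alone. The labels do not say whether the replicates came from separate clutches, so this spread may not be that between clutches. Control and PVD2 arrays of a replicate number lay on 1 slide and always at the same place on it, so array position and MO cannot be told apart.

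POUV proteins are the class V POU-domain transcription factors, the family of mammalian Oct4. In the frog embryo they are present from the egg into gastrulation, hold back commitment of blastula cells and limit their response to inducing signals. At stage 10 the germ layers are being laid down: Nodal and FGF signals pattern mesoderm and endoderm, the organizer secretes antagonists of BMP and Wnt, and the animal region of the embryo begins to divide into neural plate and epidermis. A translation-blocking MO need not lower the transcript it binds, so the probes of the POUV genes do not measure the depletion.

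Values are processed levels on a log2 scale, sample over reference, set for each probe at its mean reference level. They can be compared between arrays for 1 probe, and never between probes. "Called" means an adjusted p under 0.05 in limma over all 21495 probes, fitted on all 16 arrays with the replicate number within each tissue as a block. On the 4 arrays, 58.6% to 61.8% of probes had Cy3 signal that the scanner software marked as well above background. The labelled tissue held its markers: 7 of 8 endoderm markers with a probe were higher in control embryos than in control animal caps of the same stage (median difference 3.86), as were all 6 organizer markers (median 3.58), while ectoderm markers lay near equal levels (median 0.12 over 9). Single ectoderm markers ranged from -1.89 to 2.30. Of 7 mesoderm markers with a probe, 6 were higher in embryos (median 3.18). The muscle factor myf5 went the other way (6.32 in control embryos, 8.51 in control caps) and was not well above background on any of the 4 arrays.

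More transcripts were called lower than higher in PVD2 embryos at stage 10. Of 21495 probes, 75 (0.349%) were called, 52 lower (0.242%) and 23 higher (0.107%) in PVD2. The calls lay between -3.90 and -0.77 for falls, with a median of -1.45, and between 0.88 and 2.40 for rises, with a median of 1.49. All 75 moved the same way in both replicate pairs, and in 72 the levels of the groups did not overlap, against 32% of all probes. The call itself favours probes whose pairs agree and whose groups lie apart, so neither count is added support. Of the 75, 46 were well above background on all 4 arrays and 53 carry a gene name. Among the 12513 probes well above background on both arrays of a group, 111 (0.887%) were at least 2-fold lower in both pairs and 72 (0.575%) at least 2-fold higher. In whole embryos, fewer cells of a type and less RNA per cell cannot be told apart.

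**Figure D1:**
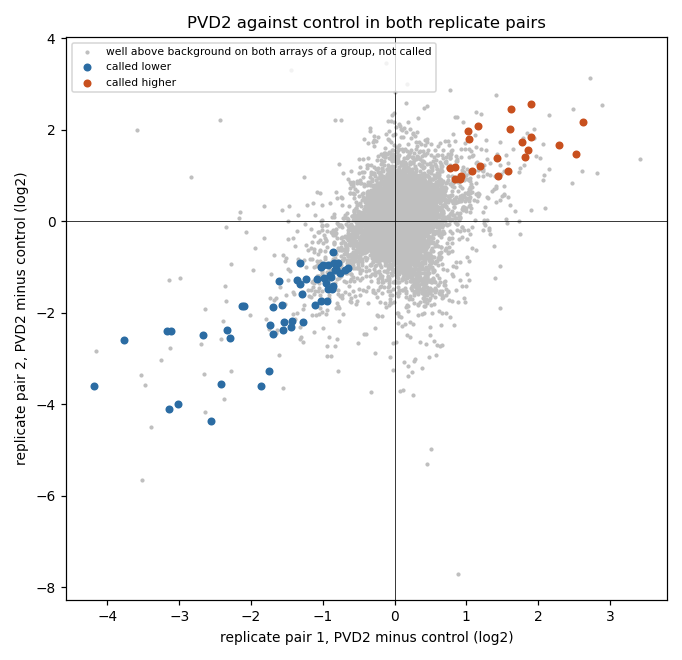
Difference of PVD2 minus control (log2) in replicate pair 1 (horizontal axis) and replicate pair 2 (vertical axis), 1 point a probe. Grey points are probes well above background on both arrays of a group and not called. The 52 blue and 23 orange points are the probes called lower and higher. All of these have the same sign in both pairs, which the call itself favours.

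The number of calls rested on how the arrays were fitted and processed. Without the replicate block 7 probes were called, with the 4 arrays alone none (smallest adjusted p 0.653, 1610 probes at an unadjusted p under 0.05), and with scanner signals taken through normexp and loess none (1611 at an unadjusted p under 0.05). Leaving out control replicate 2 left 1 call, leaving out PVD2 replicate 2 left none, and leaving out control replicate 1 gave 434. With normexp and loess 67 of the 75 kept their direction, with a median size of 0.69 in place of 1.46. All 75 kept it with loess on the Feature Extraction signals, with quantile normalization and without any 1 of the 4 arrays. They were called on these same arrays with the same sign in both pairs, so the kept direction is no added support. Fits that change only the block, the moderation or the other arrays leave the differences as they are.

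Several regulators of the early neural ectoderm were called lower. Of 31 neural plate and early neural factors with a probe, 4 were called lower, against 0.242% of all probes, and none higher, 23 were lower in both pairs against 29.8% of all probes, and their median difference was -0.73, beside 0.01 over all probes. The 4 called were hes5.2, foxd4l1.2, irx2 and lhx5. The list was chosen with earlier results of these data known, so these shares describe its members and are no independent support. Restricted to probes well above background on both arrays of a group, where fewer probes are tested, 11 of 29 were called lower. The share of all probes so tested was 0.975%. This filter also called members of other lists lower. Among them were 3 of 15 epidermis and non-neural ectoderm genes, 3 of 23 amino acid and 1-carbon enzymes and 3 of 29 Wnt genes. Among the 11, hes5.2, foxd4l1.2 and Meis2 passed this filter only through the control group, where they are high, so their calls there are no added support. Sall1 and Meis2, also among the 11, entered the list only through mouse names from the study's table of responding genes. That route favours genes that respond in these samples, so it raises the shares given here. Without the replicate block or without control replicate 1 the 4 calls were 1, without PVD2 replicate 1 they were 2, and they were 0 without control replicate 2, without PVD2 replicate 2 or with normexp and loess.

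lhx5, a LIM-homeobox gene of the anterior neural ectoderm, stood at 13.73 and 13.48 in control embryos and at 12.41 and 12.57 in PVD2. The groups did not overlap, which the call itself favours, and lhx5 fell by 1.11 ± 0.17 (SE, adjusted p = 0.0496), or 2.16-fold. irx2, an Iroquois gene of the neural prepattern, was at 8.94 and 9.03 in controls and 6.84 and 7.17 in PVD2, and fell by 1.98 ± 0.28 (adjusted p = 0.0373). Its size depended on the processing, with -0.07 after normexp and loess, while that of lhx5 was -1.25.

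hes5.2, a hairy/enhancer-of-split repressor that responds to Notch, read 8.79 and 7.90 in controls and 4.60 and 4.29 in PVD2 (adjusted p = 0.0373). It was well above background on both control arrays and on no PVD2 array, so its low level has only a bound. No fold is given, since the sign of its ratio turned, to 0.10, after normexp and loess. foxd4l1.2, a forkhead repressor of immature neural ectoderm, read 6.54 and 6.14 in controls and 4.21 and 3.75 in PVD2 (adjusted p = 0.0105). In PVD2 it too was not well above background. Its measured Cy3 signal after normexp and loess was 1.25-fold lower there, which is an estimate near background and no lower bound. Both genes were seen in control embryos and were not well above background in either morphant sample.

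Other defining members of the list missed the threshold over all probes. Sall1, a zinc-finger gene, was at 14.74 and 14.89 in controls and 13.13 and 11.96 in PVD2, a difference of -2.27 (adjusted p = 0.0818). The Zic-family probe opl stood at 15.32 and 15.54 against 13.63 and 13.81, a difference of -1.71 (adjusted p = 0.0874), and one of -1.62 after normexp and loess. sox2, which marks neural progenitors, differed by -1.15 (adjusted p = 0.0935), foxd3, a forkhead gene of neural crest and of pluripotent cells, by -2.03 (adjusted p = 0.0614), and Meis2, a homeobox cofactor, by -3.12 (adjusted p = 0.0830). After normexp and loess Sall1 was at -2.03, sox2 at -0.95, foxd3 at -0.65 and Meis2 at -0.44. In each of these the control and PVD2 levels did not overlap, except for sox2, whose control value of 11.49 lay under the PVD2 value of 11.66. PVD2 lay wholly under control in 16.9% of all probes. These 5 genes were all called lower among probes well above background on both arrays of a group, a filter that Meis2 passed only through the controls. So were foxb1 and irx1, at -1.41 and -0.88 (adjusted p = 0.0708 and 0.0814 over all probes). After normexp and loess foxb1 turned to 0.26 and irx1 was at -0.57.

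Not every neural factor was low. sox3, present throughout the early ectoderm, differed by -0.42 (adjusted p = 0.280), zic2 by 0.02, the DNA replication inhibitor gmnn by 0.00, and the bHLH genes neurog2 and esr10-A by 0.41 and 1.17 (adjusted p = 0.577 and 0.206). Another neurog2 probe was at -0.11, and a Hes5 probe, of the same list entry as esr10-A, at -0.88 (adjusted p = 0.274). The list as a whole also depended on the processing: its median was -0.07 after normexp and loess, when 16 of 31 members lay below 0. Over the 24 members well above background on all 4 arrays the median was -0.19 (-0.53 before), with 13 below 0. Over the 14 with a mean level of 10 or more it was -0.53 (-0.72 before), with 11 below 0.

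**Figure D2:**
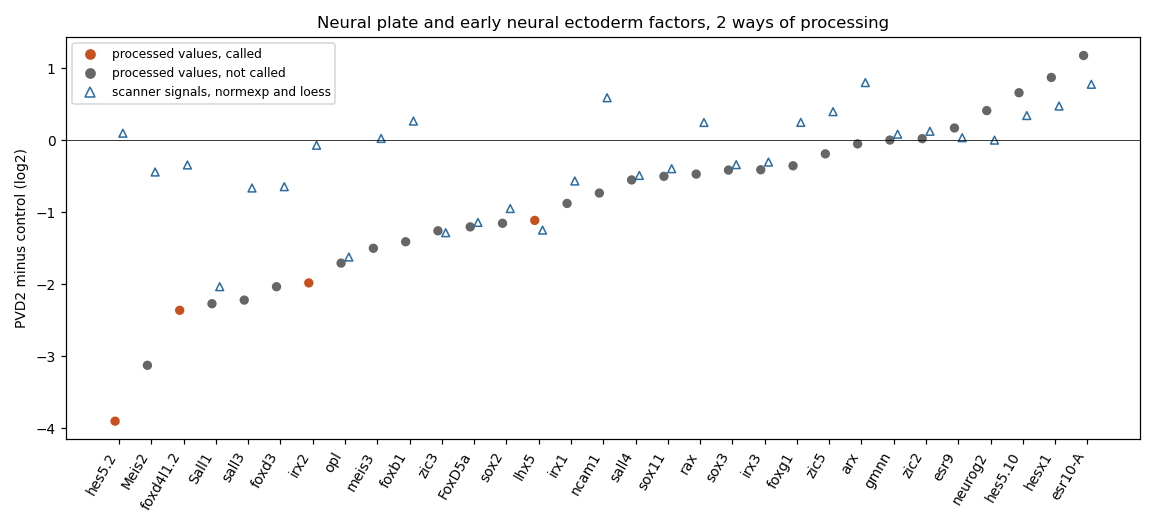
PVD2 minus control (log2) for the 31 neural plate and early neural ectoderm factors, ordered by the processed values (circles, orange where called), with the value after normexp and loess beside each (triangles). Both lie close together for lhx5, opl, Sall1 and sox2, among others. They part for hes5.2, Meis2, foxd4l1.2, foxd3, irx2, foxb1, meis3 and sall3, among others.

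Among the 16 epidermis and non-neural ectoderm genes, tfap2a was the 1 called, beside 0.349% of all probes. It stood at 10.51 and 10.60 in controls and 9.68 and 9.53 in PVD2. This AP-2 factor of epidermis and neural crest fell by 0.95 ± 0.13 (adjusted p = 0.0373), and was at -0.61 after normexp and loess. The median of the list was -0.06. The forkhead genes foxi4.2 and Foxi3 differed by -1.36 and -1.38 (adjusted p = 0.0605 and 0.0963). Their PVD2 levels lay wholly under control, as in 16.9% of all probes, though another foxi4.2 probe was at 0.16. foxi1 differed by -1.58 (adjusted p = 0.505), where PVD2 replicate 2 at 9.80 lay far under replicate 1 at 12.16. The homeobox genes dlx3 and dlx5 and the keratin krt8.1 were at 0.80, 0.43 and 0.12. sox9, an HMG-box gene of neural crest and placodes, was called: it stood at 12.12 and 12.86 in controls and 11.16 and 11.50 in PVD2, and fell by 1.16 ± 0.18 (adjusted p = 0.0499). Another sox9 probe differed by -0.65 (adjusted p = 0.243). Of 13 Sox genes sox9 was the 1 called, beside 0.349% of all probes.

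sfrp2, which binds Wnts outside the cell, stood at 13.91 and 13.23 in controls and at 10.75 and 10.83 in PVD2. It fell by 2.78 ± 0.41 (adjusted p = 0.0428), or 6.87-fold, and by 2.11 after normexp and loess. tdgf1.3 (FRL1), an EGF-CFC protein of the Nodal receptor complex, went from 16.36 and 16.65 to 15.48 and 15.16 and fell by 1.18 ± 0.18 (adjusted p = 0.0447). pdgfa, the ligand on which migrating mesoderm cells orient in the frog, went from 8.76 and 8.36 to 7.48 and 6.14 and fell by 1.75 ± 0.23 (adjusted p = 0.0339). hhip, which binds hedgehog ligands, read 7.07 and 7.90 in controls and was not well above background in PVD2 (adjusted p = 0.0499). In all 4 genes both PVD2 arrays lay under both control arrays, beside 16.9% of all probes, and the call itself favours this. After normexp and loess tdgf1.3 was at -1.10, pdgfa at -0.43 and hhip at -0.04.

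Few other genes of these pathways were called. Of 38 Wnt pathway genes, sfrp2 and tcf12 were called lower, beside 0.242% of all probes, and none higher, with a median of 0.04. tcf12, which stands in that list by its name, encodes an E protein that pairs with other bHLH factors, and it fell by 0.93 ± 0.12 (adjusted p = 0.0304). ror2, a Wnt receptor kinase, was at 8.98 and 9.19 in controls and 6.34 and 7.26 in PVD2, a difference of -2.29 (adjusted p = 0.0605) that was -0.11 after normexp and loess. Of 22 Nodal and activin genes 1 was called lower, tdgf1.3, and 1 higher, inhbb, beside 0.242% and 0.107% of all probes. inhbb, the beta subunit of activin B, was not well above background in controls and read 6.14 and 6.73 in PVD2 (adjusted p = 0.0354). Its Cy3 signal, with the offset included, was 1.38-fold higher in PVD2. The Nodal ligands nodal1, nodal6 and nr5-A were at 0.54, 0.61 and 0.95 (adjusted p between 0.281 and 0.703), and at -0.34, -0.07 and -0.03 after normexp and loess.

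None of the 17 FGF, 24 BMP and ventral, or 5 Eph and ephrin genes was called, with medians of -0.28, -0.21 and -0.34. After normexp and loess the medians were -0.05, 0.02 and -0.12. PVD2 was lower in both pairs in 11, 10 and 5 of them, beside 29.8% of all probes. It was higher in both pairs in 2, 8 and 0, beside 29.4% of all probes. By unadjusted p under 0.05, the ventral homeobox gene ventx1.1 went from 12.39 and 12.38 to 11.38 and 10.40 (difference -1.49, adjusted p = 0.0818) and the BMP feedback inhibitor szl from 13.64 and 13.47 to 12.62 and 11.94 (difference -1.27, adjusted p = 0.148). The ephrin efna3 went from 11.32 and 11.41 to 10.43 and 10.73 (difference -0.78, adjusted p = 0.0831), and fgf20 from 11.02 and 10.05 to 9.29 and 8.36 (difference -1.71, adjusted p = 0.145). In all of these both PVD2 arrays lay under both control arrays, which held for 16.9% of all probes. Restricted to probes well above background on both arrays of a group, 1 of 21 BMP and ventral genes (ventx1.1) was called lower. So was 1 of 4 Eph and ephrin genes (efna3), against 0.975% of all probes so tested.

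Mesoderm, organizer and endoderm genes gave no calls. None of 26 mesoderm, 14 organizer and 24 endoderm genes was called, and their medians were -0.28, -0.36 and -0.12. After normexp and loess the medians were 0.02, -0.31 and -0.13. PVD2 was lower in both pairs in 16 of the mesoderm and 10 of the organizer genes, beside 29.8% of all probes. It was higher in both pairs in 2 and 1 of them, beside 29.4% of all probes. tbxt (Xbra), the T-box gene of the mesoderm, stood at 13.14 and 13.46 in controls and 12.44 and 12.15 in PVD2, a difference of -1.01 (adjusted p = 0.304), and cdx4, a caudal gene of the posterior mesoderm, differed by -1.68 (adjusted p = 0.133), by -0.50 after normexp and loess, by -2.54 without PVD2 replicate 1 and by -0.82 without PVD2 replicate 2. The T-box genes vegt and eomes, upstream in mesendoderm formation, differed by -0.14 and -0.13 (adjusted p = 0.821 and 0.943).

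In the organizer, the BMP-family ligand admp and the Wnt antagonist dkk1 were at -1.01 and -0.83 (adjusted p = 0.205 and 0.339), while cer1, a multivalent antagonist of the anterior endoderm, was at -0.38 and nog at -0.54. Among endoderm regulators sox17a stood at 13.79 and 13.50 in controls and 13.88 and 14.04 in PVD2, a difference of 0.31 (adjusted p = 0.485). gata5, mixer and foxa1 differed by -0.12, 0.02 and 0.19 (adjusted p between 0.794 and 0.978). In 10 of the 24 endoderm genes PVD2 was lower in both pairs and in 9 higher, beside 29.8% and 29.4% of all probes.

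**Figure D3:**
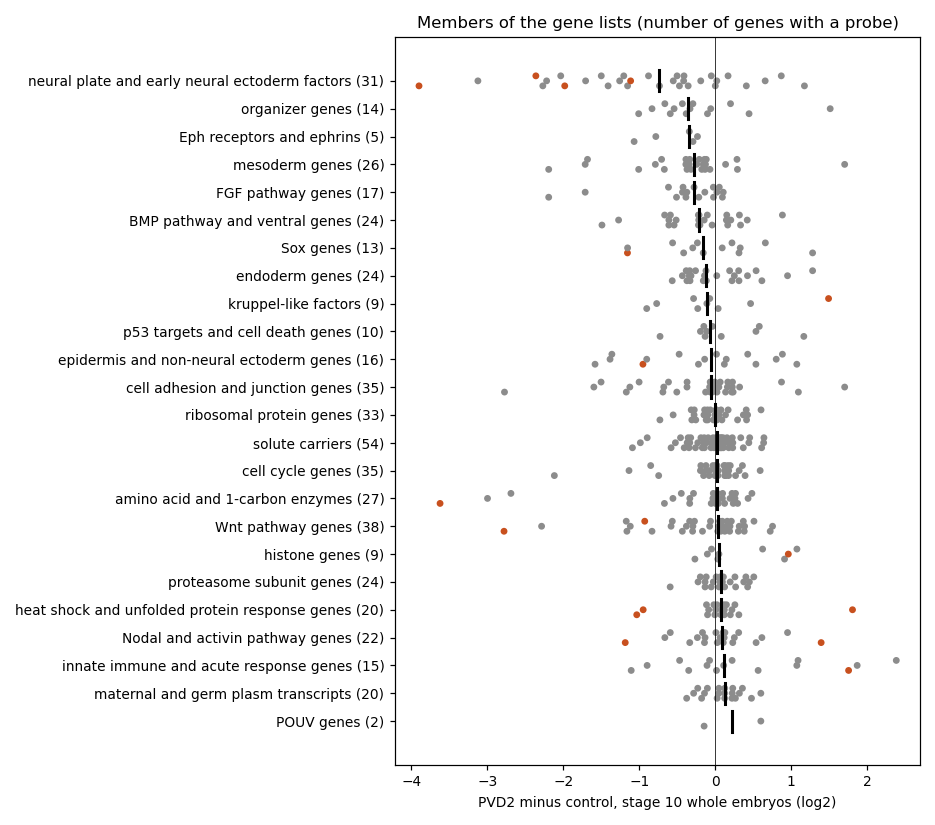
PVD2 minus control (log2) for each gene with a probe in the gene lists, 1 point a gene and orange where called, with the median of each list as a black bar and the number of genes in brackets. The neural list has the lowest median, -0.73, and the other lists lie between -0.36 and 0.23.

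arg1, the arginase that splits arginine into ornithine and urea, stood at 14.38 and 14.05 in control embryos and at 11.23 and 9.95 in PVD2. It fell by 3.62 ± 0.36 (adjusted p = 0.0143), or 12.3-fold, and by 2.86 after normexp and loess. Among called genes well above background on all 4 arrays, this was the largest named fall. It was the 1 called of 27 amino acid and 1-carbon enzymes, beside 0.349% of all probes, and their median was 0.03. Gatm, which makes the creatine precursor from arginine, went from 15.23 and 14.68 to 12.58 and 11.34 (difference -2.998, adjusted p = 0.0720). Pygb, a glycogen phosphorylase, went from 13.20 and 13.48 to 11.76 and 11.15 and fell by 1.88 ± 0.27 (adjusted p = 0.0373).

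The other largest falls had mixed roles. xepsin and Prss27, both serine proteases, went from 9.98 and 9.48 to 7.56 and 5.92 and from 12.24 and 10.99 to 10.69 and 8.61 (adjusted p = 0.0238 and 0.0354). xepsin was well above background on 1 of the PVD2 arrays, and its difference was -2.99 in the processed values and 0.08 after normexp and loess. Arl13b, a small GTPase of the primary cilium, went from 10.56 and 10.94 to 7.44 and 8.53 and fell by 2.76 ± 0.24 (adjusted p = 0.0105). Rgc32, a cell cycle regulator, and kcnk9, a background potassium channel, were seen in controls at 6.95 and 6.33 and at 7.001 and 6.90. Neither was well above background in PVD2 (adjusted p = 0.0105 and 0.0144), and after normexp and loess they were at -0.44 and -0.37. The Cy3 signal of Rgc32, with the offset included, was 1.27-fold lower in PVD2. Fam109b and 9330182L06Rik, named by their mouse counterparts, fell, with differences of -2.07 ± 0.27 and -2.52 ± 0.35 (adjusted p = 0.0323 and 0.0373). After normexp and loess Arl13b, Prss27, Fam109b and 9330182L06Rik were at -1.56, -0.78, -0.93 and -0.69.

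Some falls outside the rule for named genes were chosen after their values were seen. eef1a1o, the oocyte form of elongation factor 1 alpha, went from 17.16 and 18.00 to 16.23 and 16.25 and fell by 1.34 ± 0.20 (adjusted p = 0.0404). eef1a-s, the somatic form, went from 15.75 and 16.33 to 14.89 and 14.91 and fell by 1.14 ± 0.17 (adjusted p = 0.0404). These copies are alike in sequence and a probe may read both. Nmd3, which takes the large ribosomal subunit out of the nucleus, fell by 1.45 ± 0.17 (adjusted p = 0.0238). The other 13 named falls, among them the deiodinase dio3, the globin Hba-x, the intermediate filament gene prph and the kinase hunk, lay between -1.78 and -0.77. After normexp and loess dio3, Hba-x, prph and hunk were at -0.14, -0.28, 0.33 and -0.94. In dio3 and prph the levels of the groups overlapped. kctd12, the lowest of the 13 at -1.78, was not well above background on any stage 10 embryo array. None of 33 ribosomal protein genes was called, and their median was 0.00.

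Of 20 heat shock and unfolded protein response genes 2 were called lower and 1 higher, beside 0.242% and 0.107% of all probes. dnajc3, a co-chaperone of the endoplasmic reticulum, went from 13.55 and 14.10 to 12.66 and 12.93 and fell by 1.03 ± 0.12 (adjusted p = 0.0238). xbp1, the factor that drives the unfolded protein response, went from 14.99 and 14.69 to 14.06 and 13.72 and fell by 0.95 ± 0.12 (adjusted p = 0.0291). hspa5 and ddit3, whose transcripts climb in that response, were at 0.22 and 0.12 (adjusted p = 0.681 and 0.861). hsp70, the inducible chaperone, went the other way, from 10.24 and 9.29 in controls to 11.85 and 11.30 in PVD2, and rose by 1.81 ± 0.19 (adjusted p = 0.0157).

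No list held more than 1 of the rises. Sdcbp (syntenin), a PDZ adaptor of the cell membrane, stood at 10.48 and 9.75 in controls and at 13.11 and 11.91 in PVD2, and rose by 2.40 ± 0.28 (adjusted p = 0.0238), or 5.27-fold. Gabarapl1, a protein of autophagosome membranes, went from 8.61 and 9.01 to 10.90 and 10.66 and rose by 1.97 ± 0.21 (adjusted p = 0.0157). glis2, a zinc-finger repressor, went from 8.56 and 8.42 to 10.46 and 10.25 and rose by 1.86 ± 0.17 (adjusted p = 0.0105). popdc2, a membrane protein of muscle that binds cyclic AMP, went from 8.07 and 7.84 to 9.93 and 9.41 and rose by 1.71 ± 0.20 (adjusted p = 0.0238). In all 4 both PVD2 arrays lay over both control arrays, beside 15.1% of all probes, and the call itself favours this. After normexp and loess the differences of these 4 were 2.28, 1.71, 1.46 and 1.57.

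klf7, a Krüppel-like factor, went from 6.47 and 6.03 to 7.499 and 7.99 and rose by 1.49 ± 0.23 (adjusted p = 0.0496). It was the 1 called of 9 such factors, beside 0.349% of all probes. pik3ip1, an inhibitor of PI3 kinase, rose by 1.02 ± 0.15 (adjusted p = 0.0384), and Mtpap, the mitochondrial poly(A) polymerase, by 0.91 ± 0.10 (adjusted p = 0.0157), though by 0.04 after normexp and loess. Hist2h2ab, a histone H2A gene, and Tmem167b each rose by 0.96 ± 0.13 (adjusted p = 0.0352 and 0.0323). Hist2h2ab was the 1 called of 9 histone genes, beside 0.349% of all probes. The protease gene tmprss2.2 and e2-A were called higher (adjusted p = 0.0499 and 0.0373) and were not well above background in controls. Their Cy3 signals, with the offset included, were 1.85-fold and 1.59-fold higher in PVD2. Irf1, an interferon-response factor, was the 1 called of 15 immune and acute response genes (adjusted p = 0.0354), beside 0.349% of all probes. It was well above background on 1 PVD2 array and no control array. Its Cy3 signal, with the offset included, was 1.29-fold higher in PVD2. After normexp and loess klf7, Hist2h2ab, hsp70 and Irf1 were at 0.52, 0.41, 0.70 and 0.62.

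**Figure D4:**
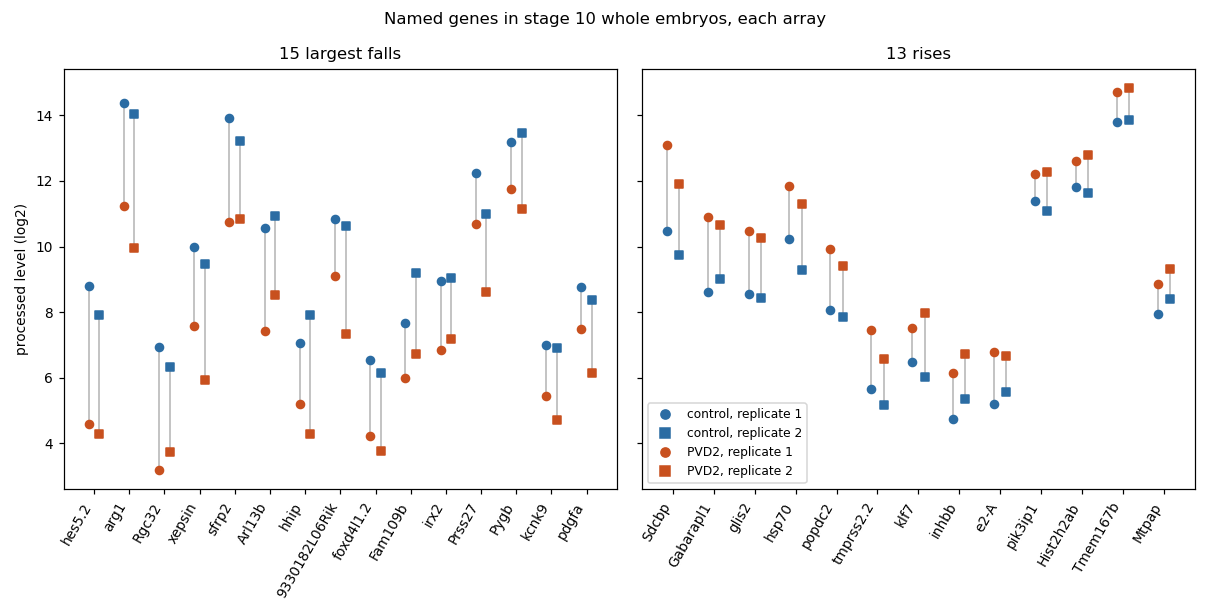
Processed level (log2, sample over reference) on each stage 10 array for the 15 largest falls and the 13 rises among named genes, with control in blue, PVD2 in orange, replicate 1 as circles and replicate 2 as squares, and a line joining the arrays of a replicate number. Levels can be compared within a gene only, and the low levels of hes5.2, Rgc32, hhip, foxd4l1.2 and kcnk9 in PVD2 and of tmprss2.2, inhbb and e2-A in controls were not well above background.

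Cell adhesion, cell cycle, cell death and maternal genes gave no calls over all probes. Restricted to probes well above background on both arrays of a group, 1 of 28 adhesion genes and 1 of 35 cell cycle genes were called lower. These were adamts1 and cenpe, and the share of all probes so tested was 0.975%. Of 35 adhesion and junction genes none was called and the median was -0.06. cdh1 and ctnnb1, E-cadherin and its partner beta-catenin, differed by -0.13 and -0.06 (adjusted p = 0.739 and 0.904), and the secreted metalloprotease adamts1 went from 14.35 and 14.95 to 12.07 and 11.68 (difference -2.77, adjusted p = 0.0904). The 35 cell cycle, 10 cell death and p53 target, and 20 maternal and germ plasm genes had medians of 0.02, -0.07 and 0.13. Of the POUV genes themselves, pou5f3.1 (Xlpou91) stood at 15.62 and 15.89 in controls and 15.76 and 15.46 in PVD2 (difference -0.15, adjusted p = 0.912). pou5f3.3 (Xlpou60) stood at 16.82 and 17.54 in controls and 17.76 and 17.79 in PVD2 (difference 0.60, adjusted p = 0.318). No named probe matched pou5f3.2 (Xlpou25).

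The same contrast was set beside stage 9 whole embryos and stage 10 animal caps, each with its own controls. Of the 52 falls, 47 were also below 0 at stage 9 and 48 in caps, with medians of -0.93 and -0.92. Of the 23 rises, 18 and 20 were above 0, with medians of 0.72 and 0.64. Over all probes the medians were 0.04 at stage 9 and -0.01 in caps, and the share of all probes on each side of 0 was not counted. arg1 was at -2.87 at stage 9 and -3.57 in caps, sfrp2 at -2.34 and -2.86, and Gabarapl1 at 1.14 and 2.02. The difference of effects between embryos and caps at stage 10 was called for no probe in limma (0%, 912 at an unadjusted p under 0.05, and none without the replicate block), so a difference between them was not shown for any gene named here. Between stages 10 and 9 in embryos it was called for 31 probes (0.144%; 12 lower, 0.0558%, and 19 higher, 0.0884%), 4 of them among the 75 and none among the genes of the lists or the 28 named by rank. Of the 31 probes, 5 were well above background on both arrays of a stage 10 group, and the number was 0 after normexp and loess.

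**Figure D5:**
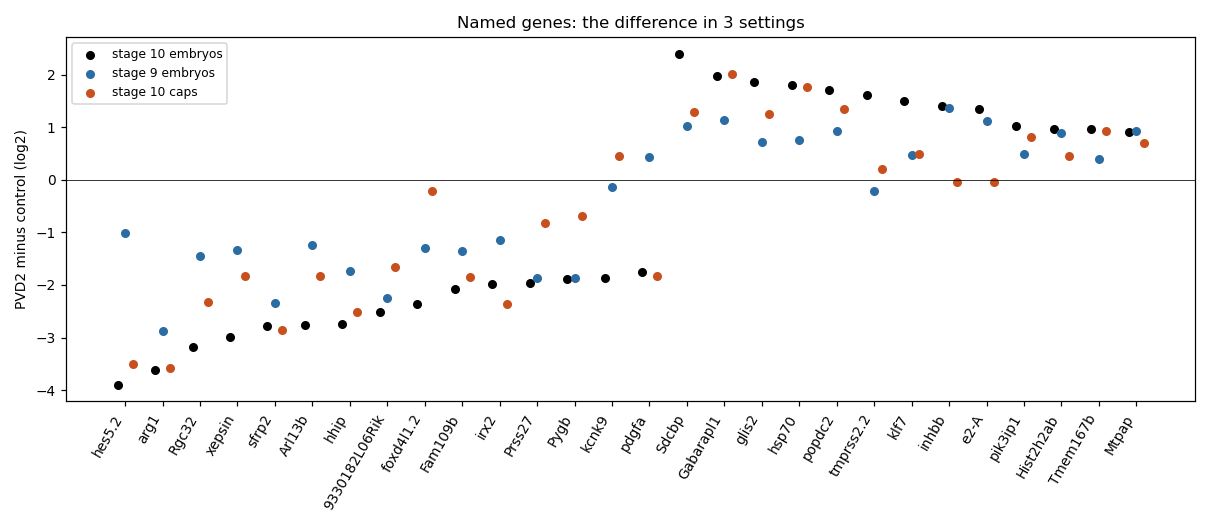
PVD2 minus control (log2) for the 28 named genes in stage 10 embryos (black), stage 9 embryos (blue) and stage 10 caps (orange), each against its own controls. The settings lie on the same side of 0 except for pdgfa (0.43) and tmprss2.2 (-0.21) at stage 9 and kcnk9 (0.46), inhbb (-0.05) and e2-A (-0.05) in caps.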

How the data were processed

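RNA of 3 whole embryos per sample had been hybridised by the authors against a pooled reference on 2-colour arrays and read with Feature Extraction 9.5.1.1. The table that the authors deposited holds log10 values. Set against the scanner files of 15 arrays, each value equals the log10 ratio of processed Cy3 over Cy5 plus the probe's mean log10 reference (largest residual 0.000154), so scale and direction are known. It was turned into log2. The intensity values the authors deposited (mean signal and median background per spot) served the flags, the Cy3 folds of dim probes and an alternative (normexp with offset 50, loess). The deposited log10 ratio of Feature Extraction served another. For the Cy3 folds a dim array took the higher of its lowest signal well above background and the probe's own signal. In the folds printed here the probe's own signal was the higher, so they are measured ratios and not lower bounds. A probe was well above background on an array when at least 0.5 of its 2 spots carried the scanner's flag.

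A mean for each of 8 groups with the replicate number within tissue as a block was fitted to all 16 arrays in limma 3.58.1 (R 4.3.3) with eBayes and Benjamini-Hochberg adjustment at 0.05. Same-numbered arrays shared a slide, and for every pair of embryo groups their deviations from the group means correlated over probes (r between 0.467 and 0.647). Same-numbered embryo and cap arrays, which the fit puts in separate blocks, correlated about as much (r between 0.434 and 0.604). The correlation is therefore not particular to a block. The number of arrays limits the precision. Tested on simulated data for this comparison (200 of 21495 probes changed), the fit recovered 45% of 2-fold and 90% of 4-fold changes, with 2.88% false calls. The simulated noise was independent between arrays and followed the fitted model. The check therefore does not cover noise shared by probes of an array or the choice of processing.

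Probes were named through RefSeq symbols (Xenopus_laevis_v10.1) or through names in the scanner files. Others took mouse names from the study's own table of responding genes, which was chosen on these samples. These were 33 probes with only an accession and further probes with only a clone number, such as Prss27, Pygb, Sdcbp and Gabarapl1. That table favours responding genes, so the share of called probes with a name is not a result. 3883 of 21495 have a name, and probes may read both homeologues. Named genes are the 15 largest falls and rises among called, named probes moving alike in both pairs and well above background on both arrays of a group, 1 probe a gene (13 rises passed), plus list members that were called or that define a list. Lists take the probe of the highest mean level. A list entry without a RefSeq match was sought among the mouse names, which favours responding genes. Sall1, Meis2, Foxi3 and Irf1 entered lists this way. Members and lists were chosen with earlier results of these data known. Alternatives are given in the closing section. No probe sequence or genome position was used here.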

Additional observations from a re-analysis of the deposited data

Results flagged for a closer look

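The effect of PVD2 in whole embryos differed between stage 10 and stage 9, by the test of the difference itself in limma, for 31 probes, 12 more negative and 19 more positive at stage 10. Of these, 5 have a gene name and 4 were also called at stage 10. Control embryos of stage 9 had the fewest probes well above background (49.7% and 51.5%) and the most outlier spots (1153 and 460) of the whole embryo arrays. Without stage 9 control replicate 1 the number was 299, which held all 31, and without replicate 2 it was 62, which held 20 of the 31.

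pdgfa was lower than its control in both pairs at stage 10 (-1.75) and higher in both at stage 9 (0.43), a difference of -2.18 with an adjusted p of 0.0501. kcnk9 was lower in both embryo pairs (-1.87) and higher in both cap pairs at stage 10 (0.46), a difference of -2.33 with an adjusted p of 0.323. inhbb was higher in both embryo pairs (1.39) and lower in both cap pairs (-0.05), a difference of 1.44 with an adjusted p of 0.477. The differences of these 3 genes did not pass the threshold, and kcnk9 and inhbb were dim in 1 of the embryo groups.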

How the results depend on the processing

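The count of 75 probes called at stage 10 was within 1.5 times with 1 block shared by both tissues (88), arrays centred on their median (93) and quantile normalization (89). It was 7 without the replicate block, 0 with the 8 whole embryo arrays or the 4 stage 10 arrays alone (both with the block), 16 with the 15 arrays that have scanner files, 0 with normexp and loess, 13 with the log ratio of Feature Extraction, and 1 without moderation. It was 197 and 146 over probes well above background on both arrays of a group and on all 4 arrays, and 229 with trend and robust moderation. Leaving out 1 stage 10 array in turn gave 0 to 434, with the lone array of a group taken to vary like the other groups. The stage difference (31 probes) was 8 without the block, 0 with whole embryo arrays alone, 0 with normexp and loess, and 5 to 95 without 1 stage 10 array. The difference between embryos and caps (0 probes) was 0 to 2 without 1 stage 10 embryo array. The members of gene lists called (17) were 1 without the block, 0 with normexp and loess, and 0 to 17 without 1 array. Chosen after seeing the data, leaving out both stage 9 control arrays gave 83 calls, loess on Feature Extraction signals gave 8, and the stage difference without a stage 9 control array was 62 to 299. Among the genes named by rank, the signs of hes5.2 (0.10) and xepsin (0.078) turned with normexp and loess. So did those of the called genes prph (0.33), apom (0.77), agr2 (0.63) and kctd12 (0.48), and of some called probes without a gene name. The cause was not tested, except that the filters test fewer probes and the smaller fits hold fewer arrays. Sizes shrank both in bright and in dim probes. Of the 46 called probes well above background on all 4 arrays, 17 were at least 2-fold after normexp and loess (33 before), with a median size of 0.80 (1.21 before). Of the other 29, 4 were at least 2-fold (28 before), with a median size of 0.44 (1.81 before).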
